A study of Homo sapiens with 2 samples.

Results

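GATA2 is a DNA-binding regulator of the GATA family, and its binding across the genome was mapped by chromatin immunoprecipitation and sequencing (ChIP-seq) in LNCaP, a long-used human line of prostate cancer cells that responds to androgen. The stretch described here is a 6 Mb block of 3q26, chr3 from 173.50 to 179.50 Mb in hg19, which holds the genes NAALADL2, TBL1XR1, KCNMB2 and PIK3CA. It was chosen by the number of peaks per Mb in this same list, so its peak density is a description and not a finding. Every peak whose midpoint lay in the window was a member, which gave 154 of the 36797 peaks in the deposited list. The labels give 1 group of 2 replicate GATA2 samples and no treatment contrast. The cells grew in RPMI with 10% serum and were placed in 5% charcoal-treated serum, a medium low in steroid hormones, for the last 3 days before the assay. The 1 list carries no value per replicate, so no spread between replicates can be given and no test between conditions was possible. No input or control sample is among those used here. All cells are of 1 line and no RNA was analysed here, so the identity of the cells was not checked against marker genes.

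GATA factors bind DNA through zinc fingers that recognise the letters GATA, and in prostate cells GATA2 is known as a partner of the androgen receptor and FOXA1 at enhancers. Most enhancers lie away from gene starts, in introns or between genes. NAALADL2 is a very long gene that encodes a relative of the prostate antigen PSMA. TBL1XR1 encodes a subunit of the NCoR and SMRT corepressor complexes, through which nuclear receptors repress their targets. KCNMB2 encodes an auxiliary subunit of the BK potassium channel. PIK3CA encodes the catalytic subunit p110 alpha of PI3 kinase, which starts the AKT signalling branch and is a well-known cancer gene. The bounds of these genes were taken in hg19 as 174.156 to 175.523 Mb for NAALADL2, 176.740 to 176.920 Mb for TBL1XR1, 178.250 to 178.560 Mb for KCNMB2 and 178.866 to 178.952 Mb for PIK3CA. Distances from these bounds are to the midpoint of a peak unless an edge is named. The bounds of TBL1XR1 and KCNMB2 are rounded to 10 kb and the others to 1 kb, and no annotation of hg19 was used, so exons and introns were not told apart.

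Upstream sequences are shown for PIK3CA and KCNMB2 because their starts differed in this list: the start of PIK3CA had a high-scoring peak close by, and that of KCNMB2 had no peak within 10 kb. Each is the 250 bases before the gene's start in RefSeq (GRCh38.p14, plus strand), with GATA or its reverse complement TATC in capitals. The PIK3CA sequence is chr3:179148107-179148356 and the KCNMB2 sequence is chr3:178536186-178536435 in that build. Peak positions are in hg19 and were not carried over, so these letters were not placed under any peak.
PIK3CA: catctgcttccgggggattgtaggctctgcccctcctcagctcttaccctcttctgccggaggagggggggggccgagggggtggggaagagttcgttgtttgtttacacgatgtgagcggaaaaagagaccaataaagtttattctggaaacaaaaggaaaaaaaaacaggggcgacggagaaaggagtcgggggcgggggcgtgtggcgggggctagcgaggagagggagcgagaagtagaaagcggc
KCNMB2: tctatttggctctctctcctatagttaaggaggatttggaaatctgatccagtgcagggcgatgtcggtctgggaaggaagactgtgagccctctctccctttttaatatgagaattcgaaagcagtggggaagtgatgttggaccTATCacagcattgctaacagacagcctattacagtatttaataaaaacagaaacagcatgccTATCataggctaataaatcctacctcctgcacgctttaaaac

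The PIK3CA window held no GATA on either strand in its 300 bases, which run from 250 before to 50 after the start. The KCNMB2 window held 3, of which 2 lay upstream. The one downstream, at bases 28 to 33 after the start, belongs to the longer string AGATAA, shown in capitals with 8 bases on either side (chr3:178536455-178536476, GRCh38.p14).
KCNMB2 site: ggagctccAGATAActaatttc

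Of all 35116 RefSeq promoter windows of this length, 49.7% held GATA or TATC and 10.3% held AGATAA or its reverse complement TTATCT, of which GATA and TATC are the inner letters. Both TBL1XR1 windows in the table lacked all 4 strings. The single NAALADL2 window held GATA or TATC in 2 places and no AGATAA, but it belongs to a start 418 kb inside the gene's outer start in GRCh38.p14 and was not compared with peaks. The GC content of the upstream 250 bases was 57.6% for PIK3CA and 42.8% for KCNMB2. For NAALADL2 it was 33.6%, and for TBL1XR1 it was 81.2% and 66.4%.

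**Figure D1:**
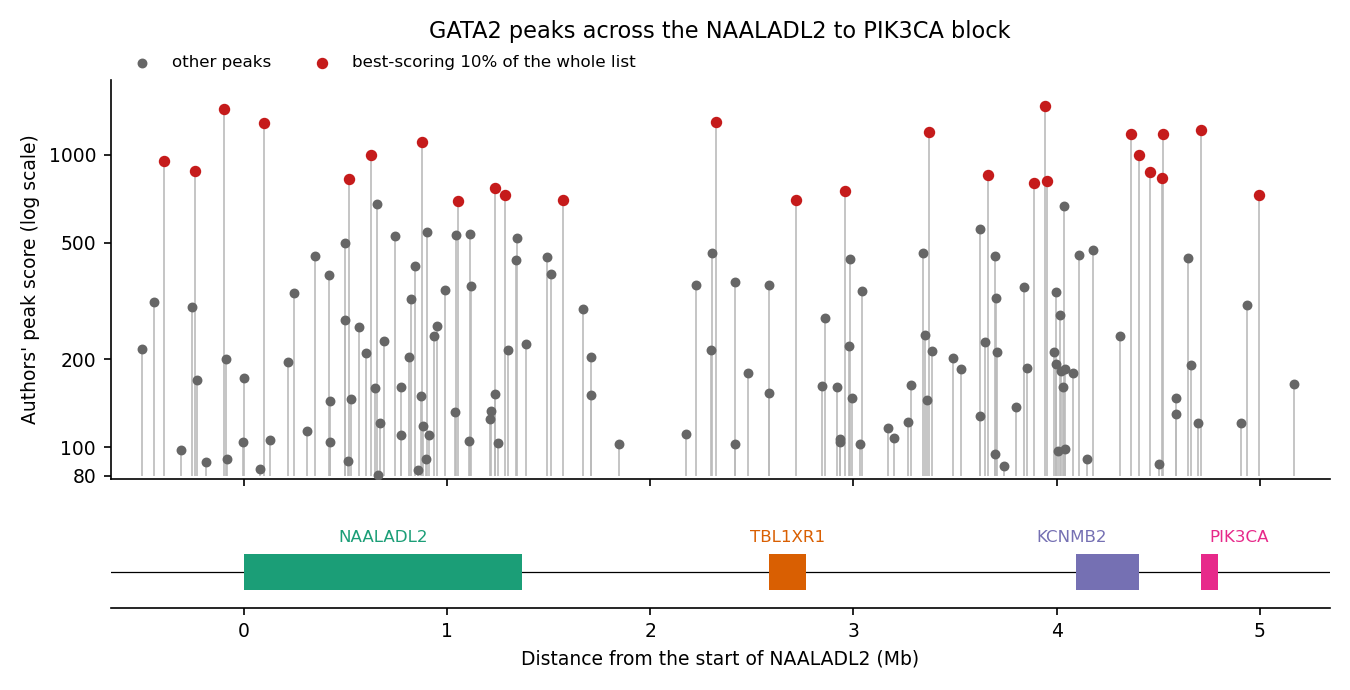
Authors' score of each of the 154 GATA2 peaks (log scale) against distance from the start of NAALADL2 in Mb, with the 4 genes as bars below; red points belong to the best-scoring 10% of the whole list. NAALADL2 and the stretch between TBL1XR1 and KCNMB2 are crowded, and PIK3CA is empty with a high-scoring peak just before its start.

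The 154 peaks were spread unevenly, at 25.7 per Mb over the block against 12.8 per Mb over the usable length of the genome (all chromosomes from first to last peak, less peak-free stretches over 2.5 Mb). Of the 5 whole 1 Mb bins inside the window, 4 held at least 31 peaks, a level that 1.09% of 2845 bins of the genome reached. This count fixed the choice of the block and supports nothing. The bins from 174 to 175 Mb, 175 to 176 Mb, 177 to 178 Mb and 178 to 179 Mb held 34, 33, 33 and 31 peaks. The bin between the pairs, from 176 to 177 Mb, held 11, and the one that follows, from 179 to 180 Mb, held 7. Both limits of the window fall in peak-free stretches, of 155 kb and 221 kb. The first peak inside lay 152 kb above the lower edge with a score of 216.6, and the last peak below that edge lay 2.65 kb outside with a score of 188.8. At the upper edge the last peak inside lay 177 kb below with a score of 164.9, and the next one outside lay 44.2 kb above with a score of 188.2.

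Within the window, 63 peaks fell in the 4 genes and 91 in the 5 stretches before, between and after them. The genes make up 32.4% of the length and held 40.9% of the peaks, nearly all of them in NAALADL2. NAALADL2 held 55 peaks, or 40.2 per Mb, the highest density of the 9 segments. The stretch from TBL1XR1 to KCNMB2 held 48 peaks, or 36.1 per Mb. Next came the stretch from KCNMB2 to PIK3CA, with 10 peaks or 32.7 per Mb. KCNMB2 held 6 peaks (19.4 per Mb), the stretch before NAALADL2 held 12 (18.3 per Mb), and that from NAALADL2 to TBL1XR1 held 17 (14 per Mb). TBL1XR1 held 2 peaks, the stretch after PIK3CA held 4, and PIK3CA held none.

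**Figure D2:**
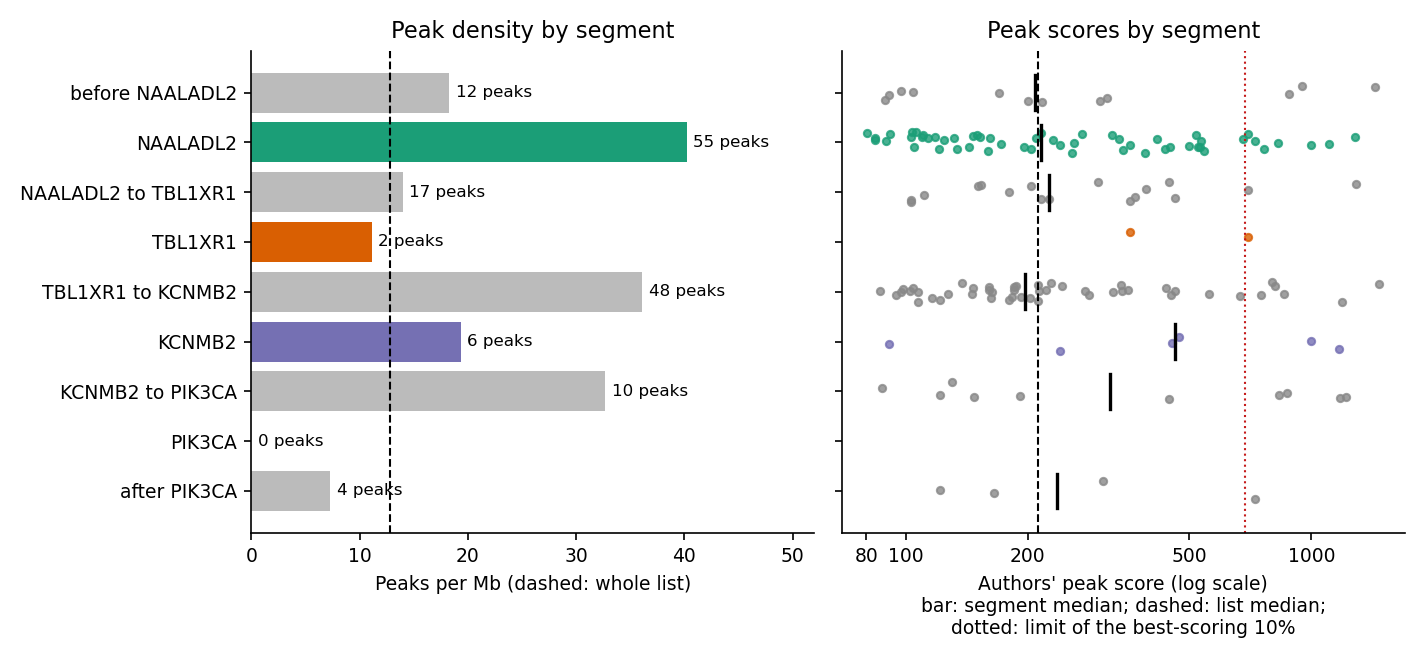
Left, GATA2 peaks per Mb in the 4 genes (coloured) and the 5 stretches around them (grey), with the number of peaks beside each bar and the density of the whole list as a dashed line; right, the authors' score of each peak (log scale), with segment medians as bars where there are at least 3 peaks. NAALADL2, at 40.2 per Mb, is the densest segment, while its median score lies at the median of the whole list.

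The score given to each peak by the authors' peak caller has no stated unit and runs from 80.01 to 3100 over the list. It was used only to rank and describe peaks, and it was not used in choosing the block. The block's median score was 215.6 (95% interval 186.8 to 277.3), between a lowest of 80.5 and a highest of 1469. The whole list had a median of 212.2, inside that interval. Among 432 windows of 6 Mb with at least 30 peaks, 47.2% had a lower median, so the median score lay near the middle of these windows. Of the 154 peaks, 26 or 16.9% (Wilson 95% interval 11.8% to 23.6%) belonged to the best-scoring 10% of the list, those scoring at least 686.9, against 10.0% by construction. That share was lower in 94.0% of the 6 Mb windows, of which those from 168 to 174 Mb and from 174 to 180 Mb of the same chromosome overlap the block. Scores of at least 1000 were held by 9 peaks, or 5.84%, against 3.69% of the list. These intervals cover counting over peaks only, and neighbouring peaks are not replicates. Read depth is unknown.

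**Figure D3:**
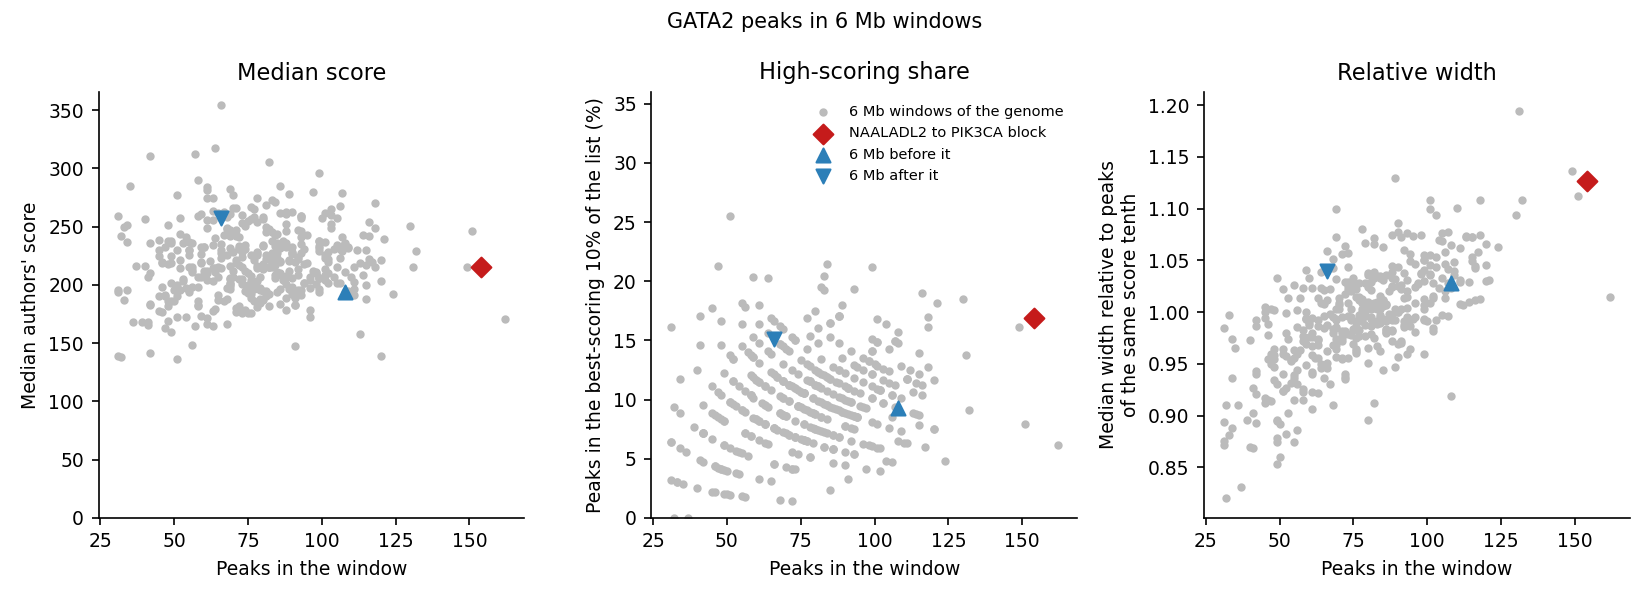
Median authors' score, share of peaks in the best-scoring 10% of the list, and median relative width (width divided by the median width of all listed peaks of like score) against the number of peaks, for 432 windows of 6 Mb, the block and the 6 Mb on either side. The block sits among the other windows in median score and near the top in relative width.

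The peaks of the block were wide for their score. The median width was 343.5 bp (95% interval 302 to 380 bp) against 293 bp in the list. Because width follows score, each peak's width was divided by the median width of all listed peaks in the same score class, with the list cut by rank into 10 equal classes. In each of these 10 classes the block's median width was above that of the list, by 12 to 62.5 bp. The median relative width was 1.13, and 116 of 154 peaks (75.3%, Wilson 95% interval 68.0% to 81.5%) were wider than their class median, against 49.5% of all peaks. Of the 432 windows of 6 Mb, 3 had a higher median relative width, and 1 of these overlaps the block. The other two lay on chromosome 1, from 144 to 150 Mb (1.19) and from 204 to 210 Mb (1.13). Relative width went up with the number of peaks in a window (Spearman's rho 0.65 across the 432 windows, which share libraries, depth and peak calling, as a description), so it is not independent of the density by which the block was chosen. In the other 27 bins of 1 Mb with at least 31 peaks the median relative width was 1.12 at the middle and ranged from 0.84 to 1.27, and in the 4 dense bins of the block it ran from 1.06 to 1.26.

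The 6 Mb on either side held fewer peaks than the block, a difference that the choice of the block fixed. Below it, from 167.5 to 173.5 Mb, 108 peaks were listed, of which 10 or 9.26% were in the best-scoring 10%. Above it, from 179.5 to 185.5 Mb, 66 were listed, of which 10 or 15.2% were in that class. Median scores were 193.7 (95% interval 161.2 to 266.0) below and 257.5 (175.7 to 298.9) above, and both intervals overlap that of the block. Relative width was 1.03 below and 1.04 above.

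NAALADL2 carried the largest group. Its 55 peaks covered 22.7 kb, or 1.66% of the gene's 1367 kb, and their median score was 215.4 (95% interval 150.1 to 343.8). The lowest scored 80.5 and the highest 1278. Non-overlapping stretches of this length across the genome held 17 peaks at the median, and 2 of 2072 held as many as 55. The dense bins by which the block was chosen cover the whole of this gene, so its high count was fixed by that choice and supports nothing. Its highest-scoring peak, at chr3:174256700-174257409, lay 101.1 kb inside the gene, was 710 bp wide and scored 1278, rank 470 in the list. The peaks at chr3:175030355-175031008 (score 1104) and chr3:174779953-174780451 (score 999.1) were also among the 10 highest of the block. In all, 7 of the 55, or 12.7% (Wilson 95% interval 6.30% to 24.0%), were in the best-scoring 10%, an interval that includes the 10.0% of the list. A higher share of high scores in NAALADL2 than in the list was thus not detectable with this number of peaks.

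Along NAALADL2 the peaks were densest in the middle of the gene and thinnest towards its outer bound, used here as its start. The start that RefSeq lists 418 kb inside the gene in GRCh38.p14 was not placed among these peaks. The thinning therefore says nothing about peaks near that inner start. With the gene cut into 10 equal stretches of 136.7 kb, the first 3 from the start held 4, 2 and 2 peaks, or 19.5 per Mb. The next 4 held 8, 7, 5 and 11, or 56.7 per Mb, and the last 3 held 4, 5 and 7, or 39.0 per Mb. The stretch with 11 peaks, from 820.2 to 956.9 kb after the start, contained the peak scoring 1104. The stretch with the second most, from 410.1 to 546.8 kb, held a run of 5 peaks with no step above 12.3 kb between midpoints, over 26.6 kb (chr3:174654470-174681035). The scores along this run were 498.7, 271.8, 89.5, 828.5 and 146.7. The highest of them thus stood next to the lowest. Nearest to the gene's far end on the inside, 24.6 kb before it, a peak at chr3:175498245-175498643 scored 520.2.

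**Figure D4:**
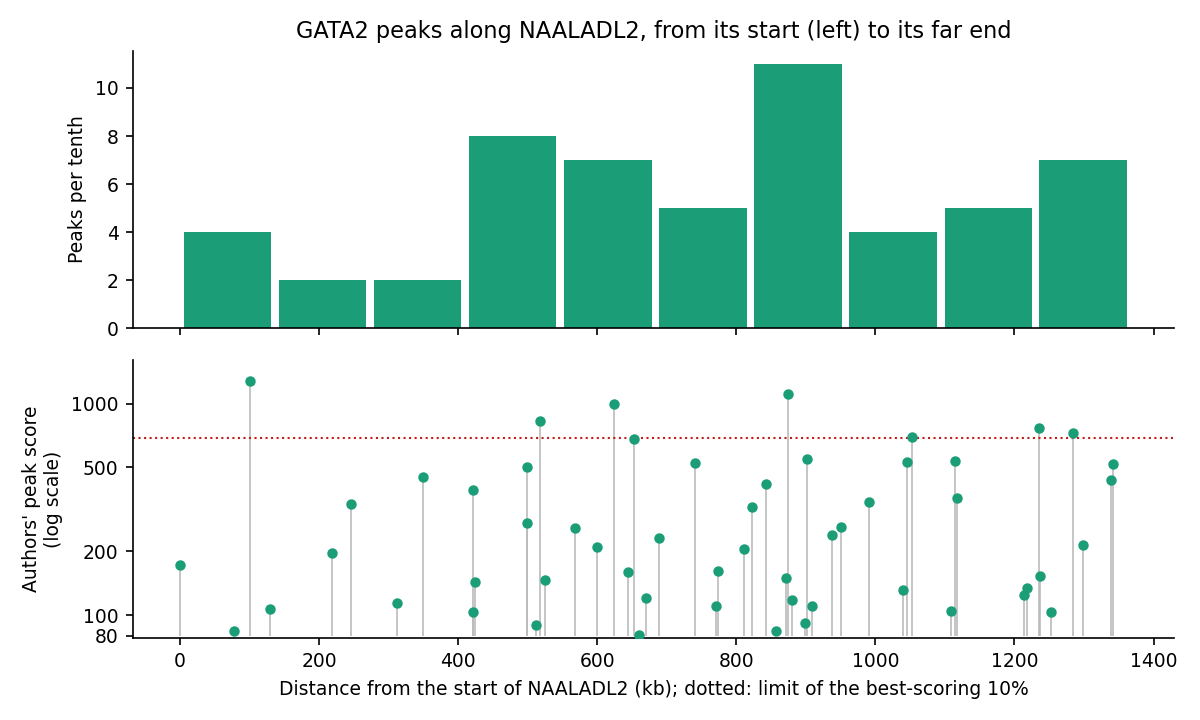
Number of GATA2 peaks in each of 10 equal stretches of NAALADL2 (top) and the authors' score of its 55 peaks on a log scale (bottom), against distance from the gene's start in kb; the dotted line is the limit of the best-scoring 10% of the list. The stretch from 820.2 to 956.9 kb holds 11 peaks, and those from 136.7 to 410.1 kb hold 2 each. The start is the outer bound of the gene, and the inner start in RefSeq is not marked.

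NAALADL2 also had the highest median relative width of the 8 segments with peaks. Of the 55, 50 or 90.9% (Wilson 95% interval 80.4% to 96.0%) were wider than the median of their score class, and the median relative width was 1.22. Across 1941 stretches of the gene's length with at least 6 peaks, 8 had a higher median. Among the 149 of them with at least 30 peaks, whose middle value was 1.05, 3 did. In the dense stretch from TBL1XR1 to KCNMB2 the same count was 29 of 48, or 60.4% (Wilson 95% interval 46.3% to 73.0%). The median relative width there was 1.09. On either side of NAALADL2 the count was 9 of 12 before the gene and 14 of 17 between it and TBL1XR1. It was 2 of 2 in TBL1XR1, 3 of 6 in KCNMB2, 7 of 10 from KCNMB2 to PIK3CA and 2 of 4 after PIK3CA. The intervals cover counting over peaks only, and neighbouring peaks are not replicates. A difference between these segments was therefore not tested, and NAALADL2 was singled out as the highest of the 8 by these same values. The widest peak of the block, 1092 bp at chr3:175201793-175202884, lay in NAALADL2 and scored 530.5. Peaks of 751 bp (chr3:175208962-175209712, score 696.7) and 744 bp (chr3:175270452-175271195, score 534.5) were there too. Only 0.19% of all listed peaks were wider than the first.

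At the outer bound of NAALADL2, used here as its start, the signal was low. A peak of 444 bp at chr3:174156336-174156779, with its edge 335 bp inside the gene's bound, scored 171.9, below the median of the list. Another, with its edge 3.32 kb before the bound, scored 104.4. No other peak lay within 50 kb of that bound on either side. This does not cover the start that RefSeq lists 418 kb inside the gene in GRCh38.p14. A peak scoring 388.4 lay 421.0 kb after the outer bound in hg19, but its place relative to that inner start was not determined. Farther upstream, 97.1 kb before the gene, stood the peak at chr3:174058640-174059252, 613 bp wide, which scored 1431, rank 251 in the list and second in the block. It belongs to the 12 peaks between the lower edge and the gene, in a stretch where NLGN1, a synaptic adhesion gene, is the last protein-coding gene before NAALADL2 in RefSeq. The other two high scorers there were 948.5 at chr3:173764179-173764619 and 878.3 at chr3:173915960-173916437.

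The 17 peaks between NAALADL2 and TBL1XR1 scored 225.4 at the median (95% interval 153.2 to 391.8) and 102.9 at the lowest. RefSeq (GRCh38.p14) places 0 protein-coding genes between this pair, and 5 long non-coding RNA genes, among them LINC01208 and LINC01209. The longest peak-free stretch of the block, 332 kb from 175999967 to 176332123, lay here, and 3.27% of all such stretches in the list were longer. The highest peak, at chr3:176477643-176478279, scored 1291 (rank 446), and the next, at chr3:175726764-175727280, scored 699.1. The remaining scores stayed at or below 460.6. The peak nearest to NAALADL2, at chr3:175541884-175542176, lay 19.0 kb after its far end and scored 225.4.

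TBL1XR1 held 2 peaks in 180 kb. The one at chr3:176872469-176872973, 505 bp wide, scored 699.0, just inside the best-scoring 10%, and lay 47.3 kb after the start of the gene, which is read from the minus strand. The other, at chr3:176740692-176741071, scored 357.3, with its edge 0.69 kb inside the rounded far end. A further peak at chr3:176737852-176738108, with a score of 153.2, had its edge 1.89 kb beyond that bound, and both distances are less than the bound's rounding, so the count could be 1 or 3. Upstream of the start the nearest peak was 80.4 kb away and scored 162.0. Stretches of 180 kb across the genome held 2 peaks at the median, the same number as in TBL1XR1. No peak was listed within 10 kb of its start.

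The 48 peaks between TBL1XR1 and KCNMB2 lay in a stretch for which RefSeq lists 0 protein-coding genes and 9 long non-coding RNA genes, among them LINC00501, LINC00578, LINC02015 and LINC01014. The median score was 197.3 (95% interval 162.0 to 277.3) and the lowest 86.5, and 6 of the 48 were in the best-scoring 10%. The highest score of the block, 1469 (rank 209), was that of a 757 bp peak at chr3:178100038-178100794, 149.6 kb before the start of KCNMB2. A second leading peak, at chr3:177527797-177528440, scored 1192.

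Closer to KCNMB2 stood the longest run of the block. It held 10 peaks over 54.8 kb (chr3:178142768-178197540), from 107.2 to 52.5 kb before the gene's start, with steps of 1.42 to 11.5 kb between midpoints. Their scores, in order towards the gene, were 212.4, 338.8, 192.2, 97.4, 283.8, 183.0, 160.4, 665.6, 98.6 and 185.4. The median was 188.8, and 0 of the 10 reached the best-scoring 10%, so the run was crowded but not high-scoring. By the same limit on steps there were 180 runs of at least 5 peaks in the list, and 30 of them held 10 or more. Away from peak-free stretches over 2.5 Mb there were 125 runs, of which 10 did.

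KCNMB2 itself held 6 peaks in 310 kb, none with a neighbour within 10 kb. In order from the start they scored 453.2, 91.2, 471.8, 240.2, 1172 and 996.6, so the high scores were at the far end. The peak scoring 1172, at chr3:178520848-178521282, lay 271.1 kb after the start. That scoring 996.6, at chr3:178559700-178560158, straddled the rounded far end. The nearest peaks to the start lay 15.1 kb before it (score 179.5) and 15.7 kb after it (score 453.2). The 6 scores overlapped the range of every other segment with peaks, and with so few their median of 462.5 has an interval of 91.2 to 1172. Stretches of 310 kb held 3 peaks at the median, and 25.1% held 6 or more.

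The 306 kb between KCNMB2 and PIK3CA held 10 peaks, and 4 of them (40.0%, Wilson 95% interval 16.8% to 68.7%) were in the best-scoring 10%. RefSeq places 1 protein-coding gene there, ZMAT3, which encodes an RNA-binding zinc-finger protein induced by p53, and the divergent transcript PIK3CA-DT. In order towards PIK3CA the scores were 870.0, 87.4, 831.1, 1178, 129.9, 147.8, 445.0, 191.5, 121.5 and 1217. The 4 high scores were far above the other 6, the highest of which was 445.0. The peak scoring 1178, at chr3:178678491-178679105, lay 187.2 kb before PIK3CA.

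The peak scoring 1217 lay nearest to PIK3CA. It spans chr3:178864948-178865530, is 583 bp wide, ranks 609 in the list, and ended 470 bp before the start of PIK3CA, whose bound is rounded to 1 kb. Of the 4 genes, only PIK3CA had a peak of the best-scoring 10% within 10 kb of its start. NAALADL2 had 2 lower peaks in that range of its outer bound, and TBL1XR1 and KCNMB2 had none. The share of all gene starts with such a high-scoring peak was not computed. Whether this count among the 4 genes is unusual therefore cannot be told. The PIK3CA upstream sequence shown above lacks GATA, which says only that these letters are not in that window, since the peak was not placed on it.

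**Figure D5:**
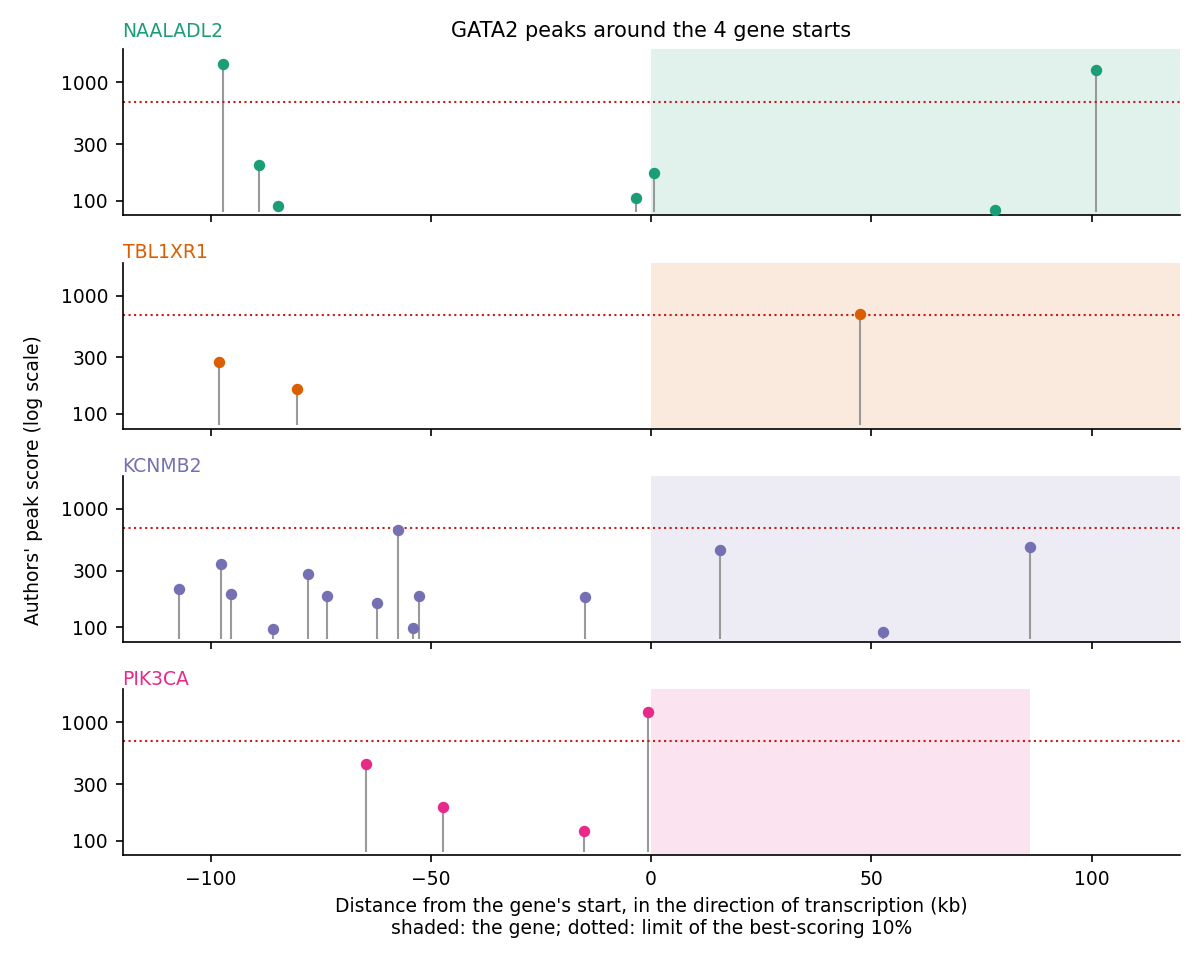
Authors' score of the GATA2 peaks (log scale) within 120 kb of the start of each of the 4 genes, against distance from that start in kb in the direction of transcription; the gene is shaded and the dotted line is the limit of the best-scoring 10%. The peak at 1217 stands directly before PIK3CA, and the shaded body of PIK3CA is empty.

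Inside PIK3CA, 0 peaks were listed in 86.0 kb. A count of 0 allows up to 3 peaks, or 34.9 per Mb, which is above the 25.7 per Mb of the block, so a lower density than in its surroundings was not detectable over a gene of this length. Of 33354 non-overlapping stretches of 86.0 kb in the genome, 41.3% held no peak. The peak-free stretch around the gene ran for 200 kb, from 178865531 to 179065257, and 9.06% of all stretches between neighbouring peaks were longer.

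After PIK3CA the block thinned out to 4 peaks in 548 kb, or 7.30 per Mb, with scores of 121.3, 307.2, 727.5 and 164.9. The genes that follow in RefSeq include KCNMB3, ZNF639, MFN1 and GNB4. The highest of the 4, at chr3:179149285-179149673, lay 283.5 kb from the start of PIK3CA. Peak-free stretches of 173 kb and 221 kb flanked the last peak, and the second of these crosses the upper edge of the window.

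Over the block, 75 of 154 peaks (48.7%, Wilson 95% interval 40.9% to 56.5%) had a neighbouring midpoint within 10 kb, against 33.2% of the list. Midpoints lay 10.6 kb from their nearest neighbour at the median, against 19.1 kb in the list. Closeness moves with density, by which the block was chosen (Spearman's rho 0.55 between this share and the number of peaks across the 432 windows, as a description). In the 4 dense bins 45.5% to 60.6% had such a neighbour, and in the other 27 dense bins the range was 42.9% to 78.9% with a median of 58.1%, so the dense bins of the block fell inside the range of the others. By segment the share was 58.2% in NAALADL2, 56.2% between TBL1XR1 and KCNMB2 and 0 in KCNMB2. Midpoints under 1.5 kb apart were found in 9 pairs, of which 7 had less than 500 bp between edges. In none of the 9 were both peaks in the best-scoring 10%. The closest pair, 94 bp apart at chr3:178744858-178745173 and chr3:178745268-178745613, scored 129.9 and 147.8.

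The high scorers were not spread evenly over the bins. The bin from 178 to 179 Mb, picked out for its share after the values were seen, had 9 of 31 peaks (29.0%, Wilson 95% interval 16.1% to 46.6%) in the best-scoring 10%, and in the other 27 dense bins of the genome this share ranged from 0 to 21.2% with a median of 8.82%. Of these 9, 3 lay before KCNMB2, 2 in it and 4 between it and PIK3CA. The rest of the block had 17 of 123, or 13.8%, between the 16.9% of the whole block and the 10.0% of the list. These peaks are part of the block, so their share is not independent of it, and a difference from the list was not tested.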

How the data were processed

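ChIP-seq for GATA2 was done on 2 replicate LNCaP samples, per the labels, from libraries amplified for 16 cycles and cut at about 225 bp. The submitters' processing notes name Bowtie and the build hg19, and the peak names in the deposited list are those of MACS. For versions, a control library and pooling of replicates, nothing is given in the sources used here. The deposited list gives each peak a score, the authors' own value, of unstated scale. Depth is unknown.

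From the list, peaks were assigned by midpoint to the window, the 4 genes and the 5 stretches around them. Starts are printed 1-based. Shares carry Wilson 95% intervals, and medians carry exact ones based on ranks. Background windows were whole, non-overlapping and free of peak-free stretches over 2.5 Mb. No hypothesis test was run. The calculation was tested on simulated data. Python 3.11.15, numpy 2.4.6, pandas 2.3.3, scipy 1.17.1 and matplotlib 3.10.9 were used.

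Peaks named in the text are the 10 highest-scoring of the block, the highest and widest of each segment, the nearest to each gene end, those of TBL1XR1 and KCNMB2, and the members of runs. Others were chosen after their values were seen. The members, lists and rules were chosen with earlier results of these data known. Alternatives varied the score limit, merging of peaks, assignment, gene bounds and run step. Gene names, strands and promoter sequences come from RefSeq, GRCh38.p14, in which all 4 genes matched. Motifs under peaks were not analysed here, since no hg19 sequence was used.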

Additional observations from a re-analysis of the deposited data

How the results depend on the processing

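Of 75 alternative values for 23 results, 64 lay inside the 95% interval of the main value or, for counts, changed by no more than 1.5 times. Not all of these intervals are printed here. With the best-scoring 10% of the list, the share of all peaks that lie in the block went from 0.419% to 0.707%. Within the block, the share held by NAALADL2 went from 35.7% to 26.9%. That of the stretch from TBL1XR1 to KCNMB2 went from 31.2% to 23.1%, and that from KCNMB2 to PIK3CA from 6.49% to 15.4%. These later shares within the block rest on 7, 6 and 4 of only 26 peaks, and no interval was computed for them. With the better-scoring 50%, the median width of the block's peaks was 429 bp, the share with a neighbour within 10 kb was 28.4%, and there were 0 runs in place of 2, partly because fewer peaks remain by construction. After peaks under 500 bp apart were merged 1 run remained. With steps up to 5 kb there were 0 runs and with steps up to 25 kb there were 7. The share of runs with at least 10 peaks, 16.7%, was 8.0% away from long peak-free stretches. That setting, windows shifted by 3 Mb and leaving out the bin from 178 to 179 Mb were chosen after seeing the data. The cause of these shifts was not tested. No paired analysis was possible because both replicates form a single group without values of their own, which also kept either from being left out. The search for GATA letters within peaks was not run.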

Other observations

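Streaks of high-scoring peaks lay around KCNMB2 and were chosen after their values were seen. All their high scorers are among the 9 already described for the bin from 178 to 179 Mb, so the streaks are not a separate result. In the whole list, at least 3 consecutive peaks of a chromosome all belonged to the best-scoring 10% in 42 places, and 2 of these were in the block. The first spanned 67.1 kb before KCNMB2 (chr3:178043066-178110190), with scores of 800.5, 1469 and 812.2, and it lay before the run of 10 peaks, none of which reached that class. The second spanned 94.5 kb across the far end of KCNMB2 (chr3:178520848-178615389), with scores of 1172, 996.6 and 870.0. Followed on to the peak scoring 1178, this second stretch covered 158 kb, in which 5 of 6 consecutive peaks were in that class and the other one scored 87.4. No test was made of these streaks, and the number expected was not computed.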
